A study of Arabidopsis thaliana with 9 samples.

Results

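The genes AT4G12470 to AT4G12550 form a tandem run on chromosome 4 of Arabidopsis thaliana that encodes small, cysteine-rich proteins of the lipid-transfer type, several of them hybrid proline-rich proteins. The run was defined by gene position, as 9 listed genes, and it was chosen knowing from earlier work on these arrays that AT4G12490 and AT4G12500 were higher in one of the mutants. The group differences of its members are therefore given as a description, without a test. Of the 9 genes, 5 were on probe sets that the probe table names, and they were measured by 4 of the 22746 probe sets. AT4G12490, AT4G12500 and AT4G12530 had a probe set each, and AT4G12510 and AT4G12520 shared one, so the signals of that last pair cannot be told apart. AZI1 (AT4G12470), EARLI1 (AT4G12480), AT4G12545 and AIR1 (AT4G12550) were on no named probe set and were not analysed here.

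All plants carried ga1-3, a mutation of GA1, which encodes an early enzyme of gibberellin synthesis. The design compared these gibberellin-deficient roots with and without a change in SCL3, which encodes a GRAS-family protein. Whole roots were taken at 7 days after germination from 3 groups of 3 biological replicates: ga1-3, ga1-3 scl3-1 (loss of SCL3) and ga1-3 SCL3OE (SCL3 overexpressed, by the labels). The medium was MS, at 22 °C, under days of 16 h light and 8 h dark. The labels used here do not name the promoter of the overexpression construct or the number of lines. Below, scl3-1 and SCL3OE stand for the groups in the ga1-3 background.

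Hybrid proline-rich proteins join a signal peptide and a proline-rich stretch to a domain with 8 cysteines, whose disulphide bridges enclose a cavity that can hold a lipid. Members of this run are known for roles at the cell wall and in membrane contact sites. AZI1 was named for its induction by azelaic acid and takes part in the priming of systemic immunity, EARLI1 was found as a gene induced by aluminium, and AIR1 was found as a gene induced by auxin in cultured roots.

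Signals are the authors' MAS5 intensities on a linear scale, 1 array per sample. Median signals were 183 to 204, and the 99th percentile of signal was 8374 to 9087 on the SCL3OE arrays against 5846 to 6649 on the other arrays. Dim probe sets, those reaching the 40th percentile of the array (a signal of 106 on average) on fewer than 3 arrays, were set aside, which left 14117. The probe sets for AT4G12490, AT4G12500 and AT4G12510/AT4G12520 were kept, and that for AT4G12530 was not. No named probe set covered SCL3 or GA1, and the labels were therefore not checked by the manipulated genes. Of 14 genes listed as root markers, 2 were measured: PYK10, an abundant root beta-glucosidase gene, had signals of 12064 ± 898 (SD, n = 3) in ga1-3, whereas ICL, the isocitrate lyase gene, was too dim for the filter and is no specific mark of roots. The root regulators SHR and SCR and the Casparian strip gene CASP1 were listed too, and no named probe set covered them.

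AT4G12490 was brighter in scl3-1 than in ga1-3 on every array. Its signals were 452, 304 and 388 on ga1-3 replicates 1, 2 and 3, 590, 945 and 682 in scl3-1, and 378, 601 and 530 in SCL3OE. The lowest scl3-1 array thus lay above the highest ga1-3 array, while SCL3OE overlapped both other groups. The ga1-3 mean was 382 ± 74.2 (SD, n = 3), against 739 ± 184 for scl3-1 and 503 ± 114 for SCL3OE. In a limma model of log2 signal over all 9 arrays, the difference was 0.94 (SE 0.19, 95% interval 0.54 to 1.35) in scl3-1, 1.92-fold, and 0.39 (SE 0.19, interval -0.02 to 0.80) in SCL3OE, both against ga1-3.

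AT4G12500, the next gene of the run, showed the same order of groups. It gave 226, 126 and 180 in ga1-3, 332, 369 and 332 in scl3-1, and 192, 317 and 275 in SCL3OE. Here scl3-1 lay above both other groups with no overlap, and SCL3OE overlapped ga1-3. The means were 178 ± 50.3 (SD, n = 3), 344 ± 21.1 and 261 ± 63.6. The log2 difference from ga1-3 was 0.99 in scl3-1 (SE 0.20, interval 0.56 to 1.42), 1.99-fold, and 0.57 in SCL3OE (SE 0.20, interval 0.14 to 1.00). The 3 scl3-1 arrays varied less (6.14% of their mean) than the ga1-3 arrays (28.3%) or the SCL3OE arrays (24.3%).

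The shared probe set of AT4G12510 and AT4G12520 followed another pattern. Its signals were 6592, 6787 and 5849 in ga1-3 and 5987, 6727 and 6824 in scl3-1, so these groups overlapped throughout. In SCL3OE they were 10510, 11801 and 12091, all above the other 6 arrays. The group means were 6409 ± 495 (SD, n = 3), 6513 ± 458 and 11468 ± 842. The log2 difference from ga1-3 was 0.02 (SE 0.09, interval -0.18 to 0.22) in scl3-1 and 0.84 (SE 0.09, interval 0.64 to 1.04) in SCL3OE, 1.79-fold.

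The size of that SCL3OE difference depends on how the arrays are scaled. After quantile normalization, which gives every array the same distribution of signals, it was 0.31 in place of 0.84. The probe set was brighter than 98.8% to 99.3% of probe sets on the ga1-3 arrays, 98.9% to 99.4% on the scl3-1 arrays and 99.4% to 99.5% on the SCL3OE arrays. The SCL3OE arrays were thus highest, at 99.44% or more against 99.38% or less, a gap narrower than the range of the ga1-3 arrays. The part of scaling in the difference of 0.84 was not tested. PYK10, another bright root gene, rose to 21798 ± 2221 (SD, n = 3) in SCL3OE (limma log2 change 0.85, SE 0.10, adjusted p = 1.2e-05), and by 0.21 after quantile normalization (adjusted p = 0.0182). In bulk roots, more cells of a type and more RNA per cell cannot be told apart.

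AT4G12530 was dim on every array. It gave 26.4, 21.7 and 33.2 in ga1-3, 26.3, 39.6 and 28.7 in scl3-1, and 19.3, 35.6 and 33.0 in SCL3OE. The 3 groups overlapped, at signals far below the filter level of 106, and only 19.8% to 27.6% of probe sets were dimmer on any array. The log2 difference from ga1-3, from the fit with no filter, was 0.22 (SE 0.40) in scl3-1 and 0.08 (SE 0.40) in SCL3OE, with intervals of -0.64 to 1.07 and -0.77 to 0.94 that leave its direction unsettled.

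**Figure D1:**
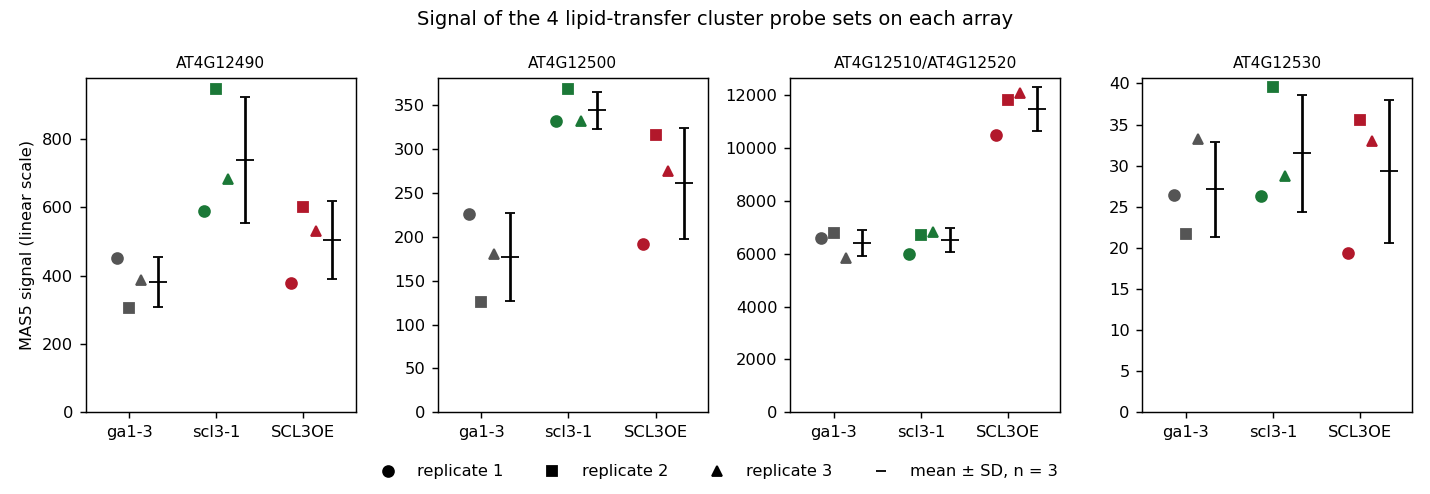
MAS5 signal (linear scale, starting at 0, a separate axis for each panel) of the 4 probe sets on each of the 9 arrays; symbols are replicates, and bars are the mean ± SD of 3 arrays. AT4G12490 and AT4G12500 are highest in scl3-1, AT4G12510/AT4G12520 is at 10510 to 12091 in SCL3OE and at most 6824 elsewhere, and AT4G12530 stays under 40 in all groups.

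Against ga1-3, 2 of the 4 probe sets were higher in scl3-1 without overlap of the groups and 2 overlapped, where 7.37% of all 14117 kept probe sets were higher without overlap. In SCL3OE 1 of the 4 was higher without overlap, where 22.1% of kept probe sets were. The median log2 difference over the 4, which include AT4G12530 that the filter removed, was 0.58 in scl3-1 and 0.48 in SCL3OE. Over the 3 that were kept it was 0.94 and 0.57, beside medians over all kept probe sets of 0.01 and -0.07. Since these contrasts took part in the choice of the run, and both use the same ga1-3 arrays, nothing is read from these counts or medians. For AT4G12500, 16 of the 14117 kept probe sets showed a larger positive difference in scl3-1, and for AT4G12490 it was 22. The scl3-1 differences of these 2 genes led to the choice, so nothing is read from their ranks either.

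Both SCL3 lines can also be compared directly. AT4G12490 was lower in SCL3OE than in scl3-1 by a log2 difference of -0.55 (SE 0.19, interval -0.96 to -0.14), with groups that overlapped by 1 pair of arrays. AT4G12500 was lower by -0.43 (SE 0.20, interval -0.86 to 0.00), with no overlap. Leaving out SCL3OE replicate 1 brought these values to -0.36 and -0.22, and leaving out scl3-1 replicate 2 brought that of AT4G12490 to -0.36. The shared probe set of AT4G12510 and AT4G12520 went the other way, at 0.82 (SE 0.09, interval 0.62 to 1.01), or 0.24 after quantile normalization. In this comparison 31.5% of kept probe sets were lower and 21.3% higher in SCL3OE without overlap of the groups. The change from scl3-1 to SCL3OE thus differed between AT4G12490 and the shared probe set by -1.37 on the log2 scale (the first minus the second), and between AT4G12490 and AT4G12500 by -0.13. After quantile normalization the first of these differences was -0.66. The scl3-1 values of AT4G12490 and AT4G12500 led to the choice of the run, and this comparison uses the same scl3-1 arrays. Nothing is therefore read from these differences.

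AT4G12490 and AT4G12500 also varied together from array to array within a group, as the values on single arrays show. Replicate 2 was the lowest of ga1-3 for both genes, replicate 2 was the highest of scl3-1, and SCL3OE ran from replicate 1 (lowest) through 3 to 2 (highest) for both. The full order was the same in ga1-3 and SCL3OE, while in scl3-1 replicates 1 and 3 were nearly tied for AT4G12500, at 332.2 and 331.9. AT4G12530, dim as it was, kept the order of AT4G12490 in scl3-1 and SCL3OE but not in ga1-3. With group means removed, Pearson's r between AT4G12490 and AT4G12500 over the 9 arrays was 0.86. It was 0.45 between AT4G12490 and the shared AT4G12510/AT4G12520 probe set, and 0.23 between AT4G12500 and the latter. Of 14116 other kept probe sets, 70 followed AT4G12490 more closely than AT4G12500 did by this measure, so the pair was among the more alike and not the most alike. These points share arrays and scaling, and whether either probe set binds transcripts of its neighbour was not tested.

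**Figure D2:**
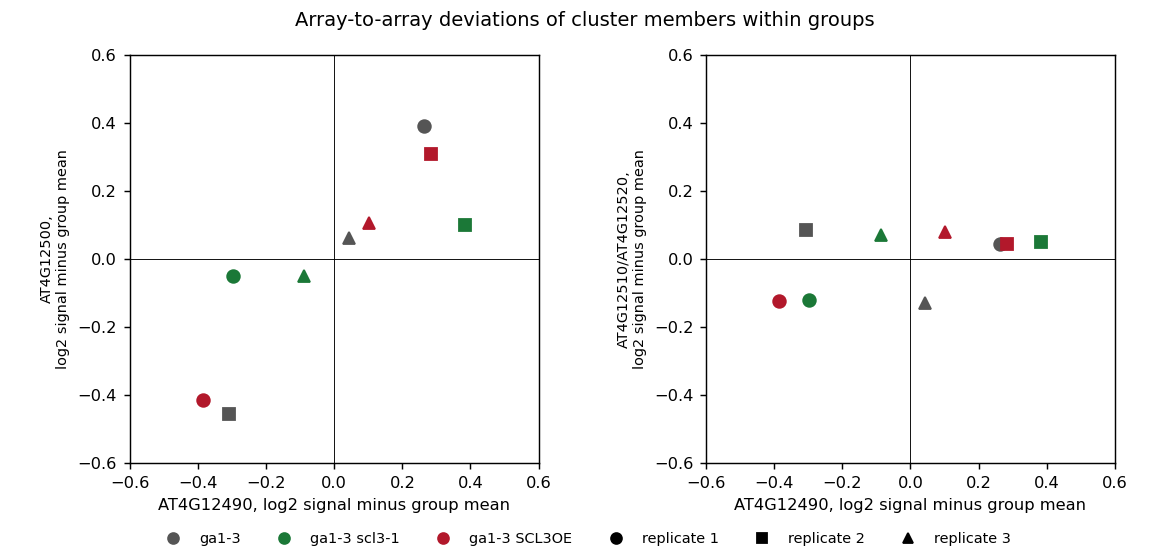
Each point is 1 of the 9 arrays, placed by its log2 signal minus the mean of its group; colours are groups and symbols are replicates. AT4G12490 and AT4G12500 deviate in the same direction on all 9 arrays (left, r = 0.86), and AT4G12510/AT4G12520 varies little around its group means (right, r = 0.45).

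The genes whose log2 signal over the 9 arrays was most like that of each member were listed from 7619 named genes outside the run. Before any of these, AT4G12500 was itself among the closest to AT4G12490, with r = 0.94, exceeded by 1 of 14116 kept probe sets (by 70 with group means removed). For AT4G12490 the nearest named genes were scpl28, a serine carboxypeptidase-like gene (r = 0.894), the transporter gene AT1G72140 (r = 0.892) and TBL45, a trichome birefringence-like gene (r = 0.891). TBL45 showed the same order of groups, at 141 ± 11.7 (SD, n = 3), 227 ± 23.0 and 170 ± 9.23 for ga1-3, scl3-1 and SCL3OE. For AT4G12500 they were AT5G48830 (r = 0.924), AT3G22550 (r = 0.914) and AT3G28530 (r = 0.908). Of these, AT3G22550 followed it most closely with group means removed (r = 0.939), with means of 98.1 ± 18.9, 187 ± 9.62 and 180 ± 29.5 in the same order of groups. For the shared AT4G12510/AT4G12520 probe set they were GAPC2, a cytosolic glyceraldehyde-3-phosphate dehydrogenase gene (r = 0.985), AT4G26710 (r = 0.984) and AT1G72020 (r = 0.984). GAPC2 had 8803 ± 925, 9131 ± 368 and 17336 ± 1770. All of these values share arrays and scaling, and, unless group means were removed, they include the differences between groups. The scl3-1 differences of AT4G12490 and AT4G12500 led to the choice of the run. Nothing is therefore read from their likeness over all arrays, or from the group orders that TBL45 and AT3G22550 share with them.

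The genes on either side of the run were tested as well. In scl3-1 limma called 0 of the 20 nearest tested genes, 10 on each side, at an adjusted p under 0.05. Of all kept probe sets 0.538% were called. An unadjusted p under 0.05 was found for 1 of the 20, where 10.7% of all kept probe sets had one. The log2 changes of the 20 in scl3-1 ran from -0.20 to 0.31 with a median of 0.00. The members' values were known when the run was chosen, and no comparison with them is drawn. SKU5 (AT4G12420), a gene of directional root growth and the nearest tested gene before the run, had means of 2319 ± 381 in ga1-3 and 2730 ± 29.3 in scl3-1 (SD, n = 3), which did not pass (0.25, SE 0.11, adjusted p = 0.426). The nearest tested gene after it, AT4G12590, did not pass either (0.17, SE 0.11, adjusted p = 0.632). AT4G12540, which lies inside the run and is not one of its 9 listed genes, was dim, with means of 48.1 in ga1-3, 46.4 in scl3-1 and 53.5 in SCL3OE.

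In SCL3OE, 3 of the same 20 neighbours changed, 2 up and 1 down, where 43.8% of all kept probe sets were called (18% higher and 25.9% lower). By limma, AT4G12690 fell from 163 ± 22.9 (SD, n = 3) to 103 ± 7.38, just under the filter level (-0.66, SE 0.16, adjusted p = 0.00351). The size of its fall is therefore uncertain, at -0.66 to -0.48 under the other processing settings that tested it. AT4G12770 rose from 146 ± 23.2 to 209 ± 5.82 (0.53, SE 0.15, adjusted p = 0.00928). AT4G12650 rose by 0.31 (SE 0.11, adjusted p = 0.0295), a call that ended without ga1-3 replicate 1 or 3 or without any 1 of the SCL3OE replicates (adjusted p 0.0562 to 0.110), or under quantile normalization (0.112), eBayes without trend (0.0577) or array weights (0.0653). All 3 lay after the run, and 0 of the 10 genes before it were called (1 at an unadjusted p under 0.05). SKU5 and AT4G12590 did not pass here (0.08, SE 0.11, adjusted p = 0.561; 0.15, SE 0.11, adjusted p = 0.263).

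Between SCL3OE and scl3-1, 3 of the 20 neighbours differed, where 39.2% of kept probe sets did (15.5% higher and 23.6% lower in SCL3OE). AT4G12340 (0.37, SE 0.13, adjusted p = 0.0335) and AT4G12130 (0.48, SE 0.17, adjusted p = 0.0333) were higher in SCL3OE. AT4G12690, with its SCL3OE mean just under the filter level, was lower (-0.53, SE 0.16, adjusted p = 0.0153). That count fell to 1 without scl3-1 replicate 2 or any 1 SCL3OE replicate, and to 0 without scl3-1 replicate 3.

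**Figure D3:**
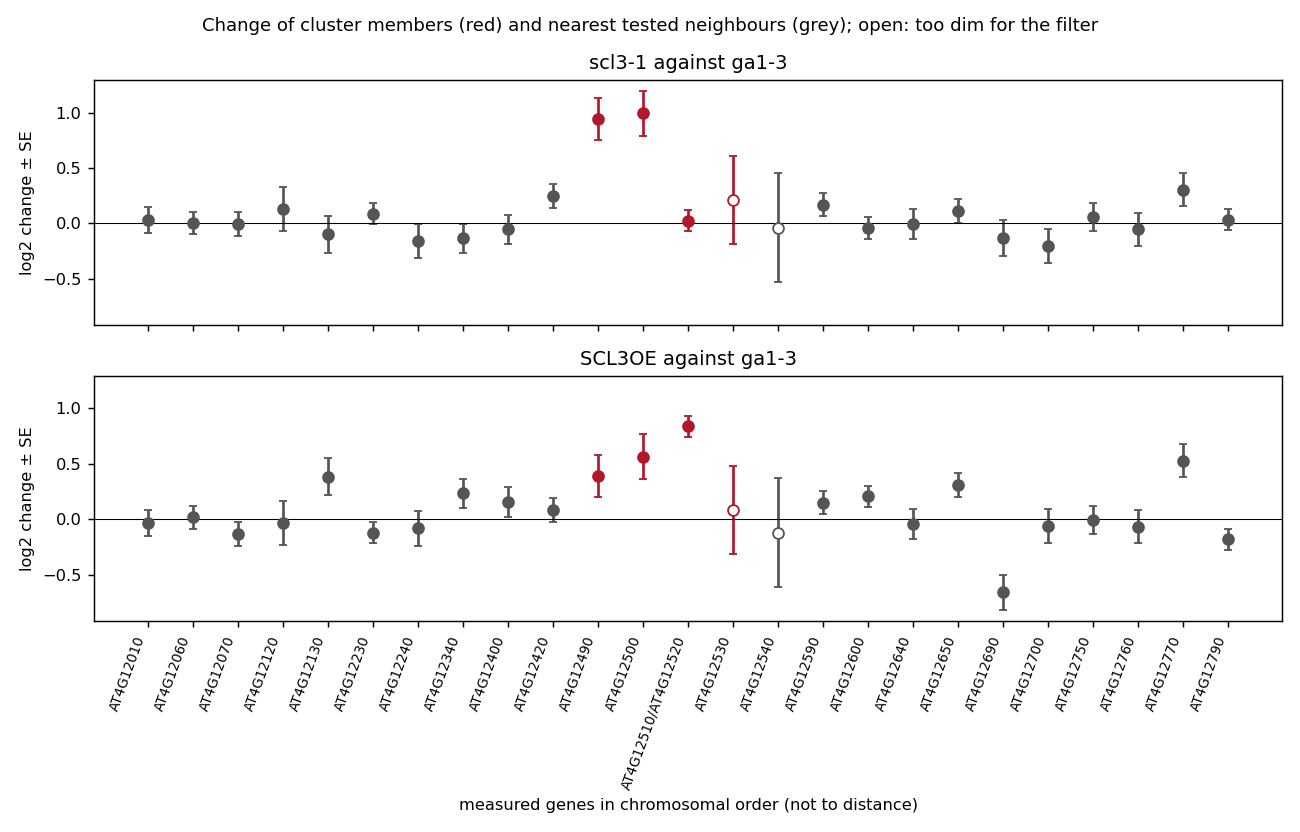
Log2 change against ga1-3 (± SE) in scl3-1 (top) and SCL3OE (bottom) for the 4 probe sets of the run (red), AT4G12540 inside it and the 10 nearest tested genes on each side (grey), in chromosomal order without distances; open symbols were too dim for the filter. In scl3-1 the 20 neighbours lie between -0.20 and 0.31, and AT4G12490 and AT4G12500, which prompted the choice of the run, at 0.94 and 0.99.

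Related genes elsewhere in the genome were examined from listed families. Of 19 other hybrid proline-rich and eight-cysteine-motif genes, 8 were measured and 5 tested. In scl3-1 limma called 0 of the 5, where 0.538% of all kept probe sets were called, and 4 had an unadjusted p under 0.05, where 10.7% did, with a median of 0.38 beside 0.01 over all kept probe sets. All gene lists used here were chosen with earlier results of these data known. Nothing is therefore read from this count of 4 or this median. AT2G10940 had the largest value, with 183 ± 50.7 (SD, n = 3) in ga1-3 and 358 ± 17.8 in scl3-1, a log2 difference of 1.00 (SE 0.22, adjusted p = 0.0628). AT1G62510 had 0.56 (SE 0.13, adjusted p = 0.0679). Both lie near the threshold: under 19 other settings AT2G10940 passed in 5 and AT1G62510 in 2, with adjusted p ranges of 0.0197 to 0.215 and 0.0193 to 0.28. AT4G22460 (0.38, SE 0.14, adjusted p = 0.295), AT2G45180 (0.24, SE 0.11, adjusted p = 0.436) and AT1G62500, a gene used as a cortex marker (0.16, SE 0.20, adjusted p = 0.852), did not pass.

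In SCL3OE 3 of these 5 genes fell and 1 rose, where 25.9% of all kept probe sets fell and 18% rose. By limma, AT2G10940 fell to 72.0 ± 22.8 (-1.36, SE 0.22, adjusted p = 0.000157). That level is under the filter level of 106, which the gene passed through the other groups, so the size of its fall is uncertain (-0.93 with an offset of 50). AT1G62510 fell from 471 ± 66.4 to 320.1 ± 23.4 (SD, n = 3; -0.55, SE 0.13, adjusted p = 0.00244) and AT1G62500 by 0.63 on the log2 scale (SE 0.20, adjusted p = 0.0171). AT4G22460 rose by 0.49 (SE 0.14, adjusted p = 0.00826), and AT2G45180 did not pass (0.07, SE 0.11, adjusted p = 0.641). AT4G22460 lost its call without SCL3OE replicate 2 (adjusted p = 0.0532), and AT1G62500 without ga1-3 replicate 1 (0.0800) or SCL3OE replicate 2 (0.0751). Tested directly, AT2G10940 (-2.36, SE 0.22, adjusted p = 9.28e-07; -1.76 with the offset), AT1G62510 (-1.11, SE 0.13, adjusted p = 6.85e-06) and AT1G62500 (-0.79, SE 0.20, adjusted p = 0.00509) were lower in SCL3OE than in scl3-1.

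Classical non-specific lipid-transfer proteins are small extracellular proteins with the same eight-cysteine fold and no proline-rich stretch. Of 21 listed, 10 were measured and 4 tested. In scl3-1 0 were called (2 at an unadjusted p under 0.05, where 10.7% of all kept probe sets were), with changes from -0.29 to 0.22. In SCL3OE 2 rose and 1 fell, beside the same 18% and 25.9% of all kept probe sets. AT1G48750 rose from 3332 ± 152 (SD, n = 3) to 5351 ± 57.1 (0.68, SE 0.10, adjusted p = 6.76e-05; 0.42 after quantile normalization, adjusted p = 0.00895) and AT2G18370 rose by 0.63 (SE 0.15, adjusted p = 0.00359). AT5G01870 went from 3827 ± 290 to 1734 ± 82.2 (-1.14, SE 0.10, adjusted p = 3.97e-07), and AT3G18280 did not pass (0.06, SE 0.11, adjusted p = 0.702).

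Of 22 listed genes of lipid-transfer proteins tethered to the membrane by a GPI anchor, 9 were measured and 6 tested. In scl3-1 0 were called (1 at an unadjusted p under 0.05, where 10.7% of all kept probe sets were). In SCL3OE 3 rose and 1 fell, where 43.8% of all kept probe sets were called. By limma, AT3G58550 went up from 600.0 ± 102 (SD, n = 3) to 1234 ± 174 (1.05, SE 0.13, adjusted p = 1.89e-05), AT3G22620 by 0.49 (SE 0.14, adjusted p = 0.0103) and AT2G48130 by 0.39 (SE 0.12, adjusted p = 0.0145). AT2G27130 fell by 0.39 on the log2 scale (SE 0.12, adjusted p = 0.0184), a call that ended after quantile normalization (0.0999) or median-centring (0.0539) and without ga1-3 replicate 1 or 3 or SCL3OE replicate 1 or 2 (0.0536 to 0.0719). The call of AT3G22620 ended after quantile normalization (adjusted p = 0.0711) or without SCL3OE replicate 3 (0.0535), and that of AT2G48130 without ga1-3 replicate 1 (0.0626) or SCL3OE replicate 3 (0.0677). AT1G62790 (-0.03, SE 0.10, adjusted p = 0.826) and AT2G44300 (-0.07, SE 0.12, adjusted p = 0.661) did not pass.

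**Figure D4:**
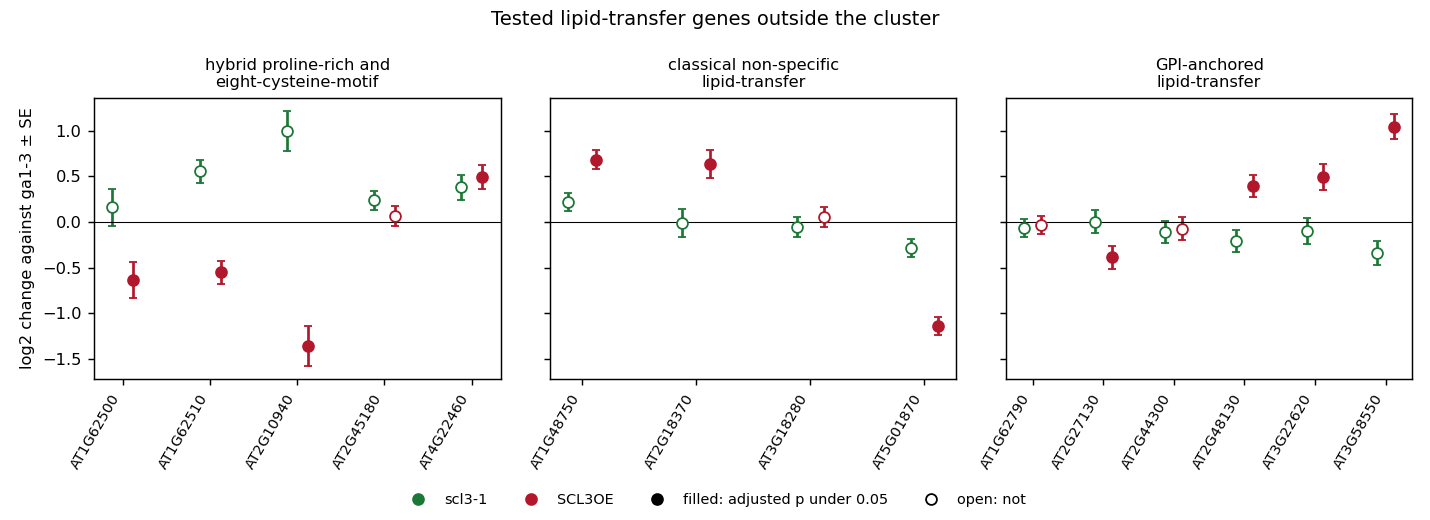
Log2 change against ga1-3 (± SE) of the 15 tested lipid-transfer genes outside the run, in 3 families, in scl3-1 (green) and SCL3OE (red); filled symbols passed an adjusted p of 0.05. None is filled in scl3-1, and in SCL3OE each family has genes on both sides of 0.

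Few genes of the processes linked to AZI1 and AIR1 could be read. Of 23 genes of systemic acquired resistance and the azelaic acid response, 2 were measured and 1 tested. AT5G52810, which acts in pipecolic acid synthesis, passed in neither line (0.28, SE 0.16, adjusted p = 0.587 in scl3-1; 0.01, SE 0.16, adjusted p = 0.975 in SCL3OE), and AT5G48490, related to the lipid-transfer gene DIR1, was dim, with group means of 20.9 to 26.7. Of 23 auxin-induced and lateral root genes, 5 were measured and 2 tested. GH3.3, an auxin-conjugating enzyme gene, rose in SCL3OE from 121 ± 10.9 (SD, n = 3) to 216 ± 19.2 (0.83, SE 0.15, adjusted p = 0.000469). It did not pass in scl3-1 (0.26, SE 0.15, adjusted p = 0.607). LBD16, a regulator of lateral root founding, passed in neither (0.04, SE 0.19, adjusted p = 0.974 in scl3-1; -0.41, SE 0.19, adjusted p = 0.0835 in SCL3OE). LBD29 (64.0 ± 8.75 in ga1-3, 65.0 ± 14.5 in scl3-1, 72.2 ± 13.0 in SCL3OE), PUCHI (69.6 ± 18.1, 67.0 ± 7.15 and 120.2 ± 24.6) and AT5G14650 (28.0 ± 7.33, 27.5 ± 11.3 and 77.8 ± 34.0) were too dim for the filter.

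Markers of other cells moved with the SCL3OE group as well. All 4 measured root hair and epidermis markers of 9 listed fell in SCL3OE, where 25.9% of all kept probe sets did, and their summed signal was 2566 to 2610 against 3864 to 4481 in ga1-3. XTH26, a root hair xyloglucan endotransglucosylase gene, fell from 362 ± 64.8 (SD, n = 3) to 24.8 ± 10.1 (limma adjusted p = 1.6e-08). It passed the filter through the other groups and was under it in SCL3OE, so the size of its fall is uncertain, at -3.94 on the log2 scale or -2.46 with an offset of 50. The expansin gene EXPA18 fell by 0.91 (SE 0.09, adjusted p = 2.38e-06), GH9C1 by 0.38 (SE 0.11, adjusted p = 0.0103) and EXPA7 by 0.37 (SE 0.12, adjusted p = 0.0212). The call of GH9C1 ended after quantile normalization (adjusted p = 0.0542) or without ga1-3 replicate 3 (0.0522), and that of EXPA7 after quantile normalization (0.103) or without ga1-3 replicate 1 (0.0941), SCL3OE replicate 1 (0.0689) or SCL3OE replicate 2 (0.0557). In scl3-1 limma called 0 of the 4 (1 at an unadjusted p under 0.05, where 10.7% of all kept probe sets were). The sum of the 4 was 4369 to 5049. Of 17 green tissue markers 3 were measured, none of them at 0, and their sum was 2192 to 2280 in ga1-3, 2341 to 2633 in scl3-1 and 2077 to 2106 in SCL3OE. LHCB4.1 (-0.51, SE 0.12, adjusted p = 0.00405) and LHCB4.2 (-0.74, SE 0.11, adjusted p = 9.53e-05) fell in SCL3OE and RCA rose (0.32, SE 0.10, adjusted p = 0.0211, lost without ga1-3 replicate 1 or any 1 SCL3OE replicate, 0.0515 to 0.0630), while 0 passed in scl3-1 (0 at an unadjusted p under 0.05). The part of these markers in the members' differences was not tested.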

How the data were processed

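The members and gene lists were chosen with earlier results of these data known. Each deposited value is a probe set's MAS5 signal intensity, linear, for which the submitters' processing notes name Affymetrix Expression Console 1.1. Per the labels' protocols, RNA was amplified and biotin-labelled for ATH1 arrays. The authors' scaling was kept and log2 taken. After the filter described above, limma 3.58.1 in R 4.3.3 fitted group means over the 9 arrays (eBayes with trend, two-sided, Benjamini-Hochberg over all kept probe sets, called under 0.05). A member that the filter removed has values from a fit without it. The number of arrays limits the precision.

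The probe table named 1 gene for 13513 probe sets, several for 503 and none for 8730. A TAIR10.1 gene table served for names and gene order. Genes named are all measured members, neighbours called in any comparison and the nearest on each side, from each list the 4 tested genes with the smallest p (all where at most 6 were measured), and the 3 genes most like each kept member. Where several probe sets named 1 gene, the one with the highest mean was used. Other list genes in the text complete a family and were chosen after their values were seen. Planned descriptions of promoters and proteins were not made, as no sequences were used here. Alternatives were the dim filter left out or raised to the 60th percentile, quantile normalization, median-centring, an offset of 50, other eBayes settings (no trend, or robust), array weights, the replicate block, only the 6 arrays compared, and leaving out each array.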

Additional observations from a re-analysis of the deposited data

How the results depend on the processing

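The median log2 difference of the 4 probe sets of the run moved by less than 1 SD between replicates under every alternative run. That SD was taken on the median log2 signal of the 4 probe sets on each array, pooled over the groups compared. It is not the spread of the median difference itself. At 0.30 for scl3-1 and 0.36 for SCL3OE against ga1-3, it is large beside the medians of 0.58 and 0.48. The limit was therefore a loose one. Leaving out single arrays, the median was 0.40 to 0.68 in scl3-1 and 0.29 to 0.68 in SCL3OE. Between them it was -0.44 to -0.04, where the main fit gave -0.28. Each single member was judged by its own SD, against ga1-3 0.11 for AT4G12510/AT4G12520 and 0.31 to 0.40 for the others. By this measure only AT4G12510/AT4G12520 moved by more than its SD. After quantile normalization it was 0.31 (SCL3OE against ga1-3) and 0.24 (against scl3-1), and after median-centring 0.94 (against scl3-1). AT4G12530, within its wider SD, went from 0.08 to -0.17 in SCL3OE against ga1-3 after quantile normalization. Leaving out single arrays, AT4G12490 was 0.75 to 1.09 and AT4G12500 0.77 to 1.19 in scl3-1; in SCL3OE the former was 0.24 (without ga1-3 replicate 2) to 0.58 (without SCL3OE replicate 1) and the latter 0.34 to 0.77 (the same arrays). Between scl3-1 and SCL3OE they were -0.70 to -0.36 and -0.58 to -0.22.

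The probe sets called in scl3-1, 76, became 36 without the dim filter, 20 by eBayes without trend, 123 with array weights and 30 with only 6 arrays. Leaving out single arrays gave 3 (without scl3-1 replicate 2) to 148 (without ga1-3 replicate 1), with 5 and 15 without ga1-3 replicates 2 and 3, 23 without scl3-1 replicate 1, and 48 and 39 without SCL3OE replicates 1 and 3. List genes called in scl3-1 went from 0 to 1 with an offset of 50, array weights, the replicate block or only 6 arrays, and were 0 to 1 leaving out single arrays. Neighbours called against ga1-3 in SCL3OE, 3, became 1 with the 60th percentile filter and 6 with median-centring (2 to 3 leaving out single arrays). That stricter filter set aside AT4G12690 and AT4G12770 as dim, so they were not tested under it. Against scl3-1 the neighbours called went from 3 to 1 and 5 under the same 2 settings and to 5 with array weights (0 to 4 leaving out single arrays). Here the stricter filter set aside AT4G12130 and AT4G12690.

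Median-centring raised the share of calls that were higher from 41.0% to 53.4% (SCL3OE against ga1-3) and from 39.6% to 59.0% (against scl3-1), and moved the median of all probe sets in the latter from -0.07 to 0.06. Same-numbered arrays of different groups did not deviate together (r -0.19 to 0.18 over 9 pairs, against -0.17 to 0.24 over 18 other pairs). Whether same-numbered samples were grown or processed together cannot be told from these values. The replicate block gave 73 calls in scl3-1, 6175 in SCL3OE and 5486 between them. The cause of these shifts was not tested.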
